A study of Sus scrofa with 12 samples.

Results

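Fatty acid synthase (FASN), cytosolic malic enzyme (ME1), transketolase (TKT) and acetoacetyl-CoA synthetase (AACS) were followed across 12 RNA-seq libraries of Dingyuan sows. The Dingyuan is a Chinese native pig that lays down much fat. The 4 genes were found in the FPKM table through the Ensembl identifiers that the study's supplementary gene tables give for these names, and each of the 4 had its own row among 31903 identifiers. The sows were unmated and aged 300 days, and each of 4 groups had 3 libraries. Back subcutaneous fat was taken from pigs with low backfat thickness (LBF) and high backfat thickness (HBF), and longissimus dorsi (LD) muscle from pigs with low intramuscular fat (LIMF) and high intramuscular fat (HIMF). All 4 groups were of 1 breed and 1 age, and the labels name no treatment or altered gene. The slaughtered pigs were chosen from a larger herd for extreme live backfat, and the muscle groups were formed among them by intramuscular fat. Both tissues are mixtures of cell types, so fewer cells of a type and less RNA per cell cannot be told apart.

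Fatty acids are built in the cytosol from acetyl-CoA, which ACLY releases from citrate and ACACA carboxylates to malonyl-CoA. FASN joins these units into palmitate and uses NADPH at each round of chain growth. In pigs the adipose tissue, rather than the liver, is the main site of this synthesis. ME1 makes NADPH as it turns malate into pyruvate, and PGD makes it in the pentose phosphate pathway. TKT makes no NADPH itself, but moves carbon between pentose phosphates and the intermediates of glycolysis in the later arm of that pathway. AACS activates acetoacetate in the cytosol and so feeds ketone body carbon into fatty acids and sterols.

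In Sscrofa11.1, the build to which the reads were aligned, RefSeq places FASN (ENSSSCG00000029944) at chr12:922405-937560 and ME1 (ENSSSCG00000004454) at chr1:82799878-82989895. TKT (ENSSSCG00000021408) lies at chr13:35348921-35377518 and AACS (ENSSSCG00000009755) at chr14:28109845-28169261, so the 4 genes are on 4 different chromosomes. Whole genes were measured, with no division into exons or untranslated regions. FASN is the member with designed oligonucleotides in the study's tables, the RT-qPCR primer pair shown here in lower case from 5′ to 3′ because it defines which FASN transcript the study amplified. Each primer has 21 bases and a GC content of 52.4%. What was measured with the pair was not used here.
FASN-F: agcctaactcctcgctgcaat
FASN-R: tccttggaaccgtctgtgttc

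FPKM is the number of sequenced fragments per kilobase of transcript, scaled to the mapped fragments of the library, so levels can be compared between genes. Between libraries, and above all between the tissues, a difference also depends on the scaling of the libraries. The FPKM of a library summed to between 420982 and 517796, and the number of reads behind a value is not known from FPKM. The labelled tissues were borne out by their markers. The 9 adipocyte markers summed to 8187 to 13339 FPKM in fat and to 135 to 255 FPKM in muscle. The 8 measured skeletal muscle markers summed to 11876 to 36816 FPKM in muscle. In fat they summed to 46.3 to 64.3 FPKM, except in LBF replicate 3 with 344 FPKM, where ACTA1 stood at 107 FPKM and CKM at 47.7 FPKM. ACTA1 was listed at 0 in 4 muscle libraries and CKM in 2, which in muscle can be a failed estimate, and no member was listed at 0 in any library.

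In back fat, all 4 genes were lower in each HBF library than in any LBF library. FASN, the enzyme that completes the palmitate chain, was at 980.3, 333 and 581 FPKM in the LBF libraries and at 65.1, 51.0 and 134 FPKM in the HBF libraries. The highest HBF library thus lay below the lowest LBF library. The group means were 632 ± 326 FPKM in LBF and 83.5 ± 44.6 FPKM in HBF (SD, n = 3 each), a ratio of 7.57. The difference of HBF minus LBF in log2(FPKM + 0.1) was -2.91 with a standard error of 0.48 and a 95% interval from -4.03 to -1.78. Only 10 of the 16239 genes tested had a more negative difference. LBF replicate 1 was the highest library, and without it the FASN difference was -2.52.

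AACS, the acetoacetate-activating enzyme, stood at 41.7, 33.1 and 33.2 FPKM in LBF, against 5.35, 9.75 and 8.52 FPKM in HBF. The LBF libraries were close to each other, and the gap to HBF was wider than the spread in either group. The means were 36.0 ± 4.98 and 7.87 ± 2.27 FPKM (SD, n = 3 each), a ratio of 4.57. On the log2 scale the difference was -2.21 ± 0.24 (SE). By p-value AACS ranked 2 of 16239 genes.

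ME1, the malic enzyme of the cytosol, was at 148, 91.9 and 73.4 FPKM in LBF, against 47.9, 50.01 and 47.8 FPKM in HBF. The HBF libraries differed from each other by a coefficient of variation of 2.54%, against 37.1% in LBF. The ratio of the means was 2.15 and the log2 difference was -1.04 ± 0.25 (SE). Without LBF replicate 1, the highest library, it was -0.76.

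TKT, the transketolase of the pentose phosphate pathway, stood at 380.4, 344 and 314 FPKM in LBF, against 153, 181 and 209 FPKM in HBF. Its groups were also apart, with a ratio of means of 1.91 and a log2 difference of -0.94 ± 0.17 (SE). Of the members it varied least among the LBF libraries, with a coefficient of variation of 9.54%.

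**Figure D1:**
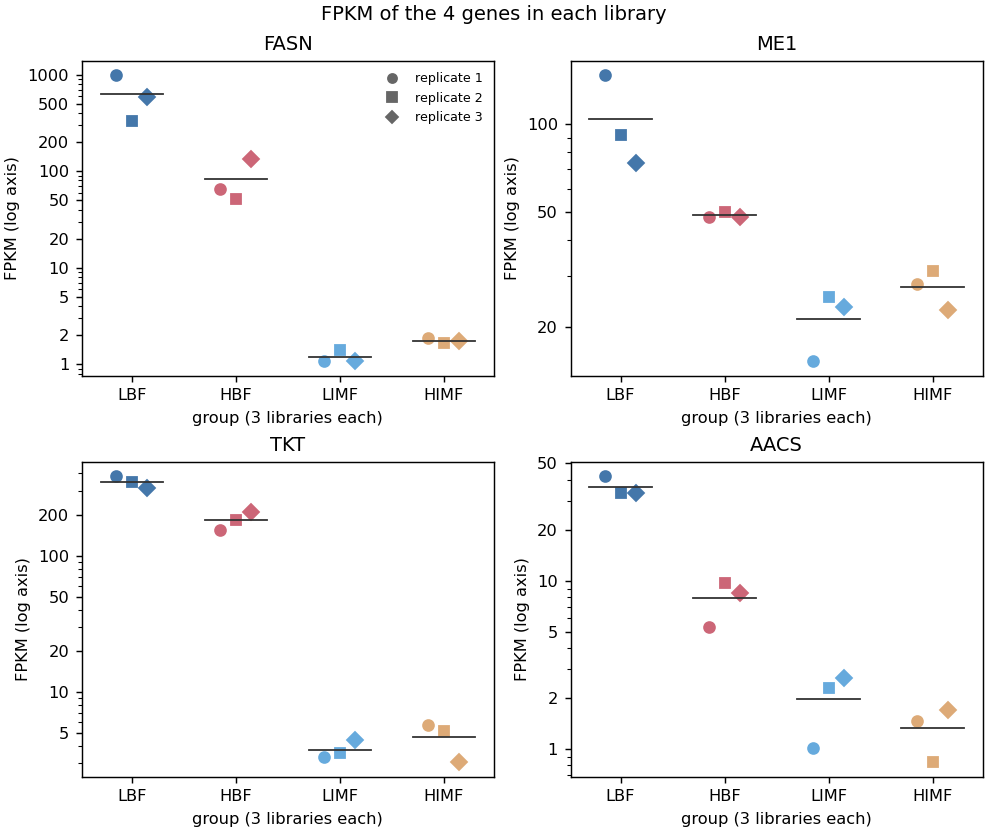
FPKM of FASN, ME1, TKT and AACS in each of the 12 libraries on a log axis, 1 panel per gene, with the groups on the horizontal axis, 1 point per library and a bar at the mean of the 3 libraries. For each gene the 3 HBF points lie below the 3 LBF points, and in muscle this kind of gap is seen for FASN, where the HIMF points (1.66 to 1.85 FPKM) lie above the LIMF points (1.07 to 1.39 FPKM).

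None of the 4 differences in fat passed the test across all genes. The adjusted p-values of limma were 0.128 for AACS, 0.189 for FASN, 0.204 for TKT and 0.238 for ME1, whereas a call needed an adjusted p below 0.01 together with a log2 difference of 1 or more in either direction. At these limits 0% of the 16239 genes were called, while 2206 genes had an unadjusted p under 0.05. The exact permutation test gave a two-sided p of 0.10 for each member, the smallest that 3 against 3 libraries allow. Of all genes tested, 6.46% were lower in HBF without overlap between the libraries of the groups, and 13.9% were higher without overlap. After median-of-ratios scaling between libraries these shares were 9.74% and 9.14%, and all 4 members were still lower without overlap. The study lists the 4 genes as lower in HBF from these same libraries, so their shared direction in fat is a description and not independent evidence.

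Other measures moved with backfat thickness too. The 3 blood markers summed to 253 to 627 FPKM in LBF and to 49.6 to 194 FPKM in HBF, without overlap. The 6 measured macrophage markers summed to 48.2 to 131 FPKM in LBF and 119 to 130 FPKM in HBF, and 2 of them, CD14 and CSF1R, were higher in HBF without overlap. The 5 stromal markers summed to 2035 to 6235 FPKM in LBF and 1395 to 3216 FPKM in HBF, and the 3 endothelial markers to 138 to 288 and 254 to 399 FPKM, both with overlap. The part of blood, macrophage, stromal and endothelial RNA in the member differences was not tested. The adipocyte markers summed to 8187 to 10576 FPKM in LBF and to 8420 to 13339 FPKM in HBF. Among them leptin (LEP) was higher and lipoprotein lipase (LPL) lower in HBF without overlap. For LPL the study's candidate gene table gives the opposite direction, higher in HBF and also higher in HIMF. Of the 8 skeletal muscle markers 3 were lower in HBF without overlap, MYL1, CASQ1 and ACTN2, and the list median was -2.05 on the log2 scale. ACTN2, a protein of the muscle Z-disc, was at 0.856, 1.49 and 3.48 FPKM in LBF, against 0.265, 0.529 and 0.525 FPKM in HBF, so low levels of it were seen in all fat libraries and the highest in LBF replicate 3. The part of muscle RNA in the member differences was not tested. Without LBF replicate 3, the library with the most muscle transcripts, the log2 differences were -2.90 for FASN, -2.27 for AACS, -1.26 for ME1 and -1.01 for TKT.

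The enzymes next to FASN did not share its difference in size. ACLY was at 36.9, 19.0 and 47.9 FPKM in LBF, against 62.8, 26.8 and 28.1 FPKM in HBF, and the log2 difference was 0.16 ± 0.43 (SE). ACACA was at 24.3, 15.5 and 41.0 FPKM in LBF, against 26.2, 18.9 and 18.01 FPKM in HBF, with a difference of -0.26 ± 0.35 (SE). For both enzymes the groups overlapped. The stearoyl-CoA desaturase SCD had a wide range, from 446 to 3669 FPKM in LBF and from 267 to 1356 FPKM in HBF.

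Of the 11 genes of fatty acid chain synthesis, all tested, 3 were lower in HBF without overlap and 1 was higher, beside 6.46% and 13.9% of all genes tested. The lower genes were FASN, the citrate carrier SLC25A1 (-0.79 ± 0.16, SE) and the acetyl-CoA synthetase ACSS2 (-0.78 ± 0.28), and the higher gene was the desaturase FADS2 (0.67 ± 0.19). The median log2 difference of the list was -0.26, and -0.25 without FASN, against 0.09 over all genes tested. None of the 11 genes passed the test, with adjusted p-values from limma of 0.189 to 0.897.

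Of the 13 genes of NADPH supply 12 had a row, and 6 of these were lower in HBF without overlap, again beside 6.46% of all genes. Besides ME1 and TKT they were ALDH1L1, TALDO1, MDH1 and PGLS. ALDH1L1, which makes NADPH as it oxidizes formyl-tetrahydrofolate, was at 52.9, 41.8 and 72.6 FPKM in LBF, against 8.08, 10.4 and 15.1 FPKM in HBF. Its log2 difference of -2.32 ± 0.28 (SE) had an adjusted p of 0.140 by limma. TALDO1, the transaldolase that works beside TKT, had a difference of -0.62 ± 0.21 (SE), and MDH1, the cytosolic malate dehydrogenase, one of -0.78 ± 0.25 (SE).

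Of these lower genes, ME1 and ALDH1L1 make NADPH themselves, whereas PGD and IDH1, which also make it, overlapped between the groups. PGD was at 90.6 to 166 FPKM in LBF, against 86.9 to 102 FPKM in HBF. The cytosolic isocitrate dehydrogenase IDH1, another NADPH source, was at 157 to 185 FPKM in LBF, against 118 to 207 FPKM in HBF. The median of the 12 genes was -0.36, and -0.28 without ME1 and TKT, and none passed the test.

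Among the 13 genes of acetoacetate and sterol synthesis, 6 were lower in HBF without overlap and 0 were higher, with the same shares of 6.46% and 13.9% over all genes. These were AACS, the cytosolic thiolase ACAT2 (-0.48 ± 0.16, SE), MVK (-0.76 ± 0.25), IDI1 (-0.60 ± 0.18), the squalene synthase FDFT1 (-0.82 ± 0.23) and the lanosterol synthase LSS (-0.93 ± 0.24). HMGCS1, the cytosolic synthase that uses acetoacetyl-CoA, overlapped between the groups, with a log2 difference of 0.31 ± 0.22 (SE). The list median was -0.48, and -0.12 without AACS, and no gene of the list passed the test. ACAT1, the mitochondrial thiolase of ketone body metabolism, was also lower in HBF without overlap, with a difference of -0.90 ± 0.16 (SE).

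The regulators of lipogenesis did not move one way. Of 15 genes, 2 were lower in HBF without overlap, MLXIPL and INSIG2, and 2 were higher, SREBF2 and USF1. These counts are near the shares over all genes, 6.46% lower and 13.9% higher. MLXIPL, the carbohydrate-responsive factor, was at 39.1, 48.8 and 62.0 FPKM in LBF, against 38.5, 29.9 and 32.4 FPKM in HBF. SREBF1, which encodes the sterol-regulatory factor that drives FASN, was at 29.6, 10.04 and 24.1 FPKM in LBF, against 22.8, 18.8 and 19.3 FPKM in HBF, and the groups overlapped. The list median was 0.15 against 0.09 over all genes. Of the 10 genes of triglyceride assembly and storage, 2 were lower in HBF without overlap and 0 were higher, beside 6.46% and 13.9% of all genes. One was DGAT2, the acyltransferase of the last step, with a difference of -1.54 ± 0.44 (SE), and the other was GPAM with -0.27 ± 0.17 (SE).

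**Figure D2:**
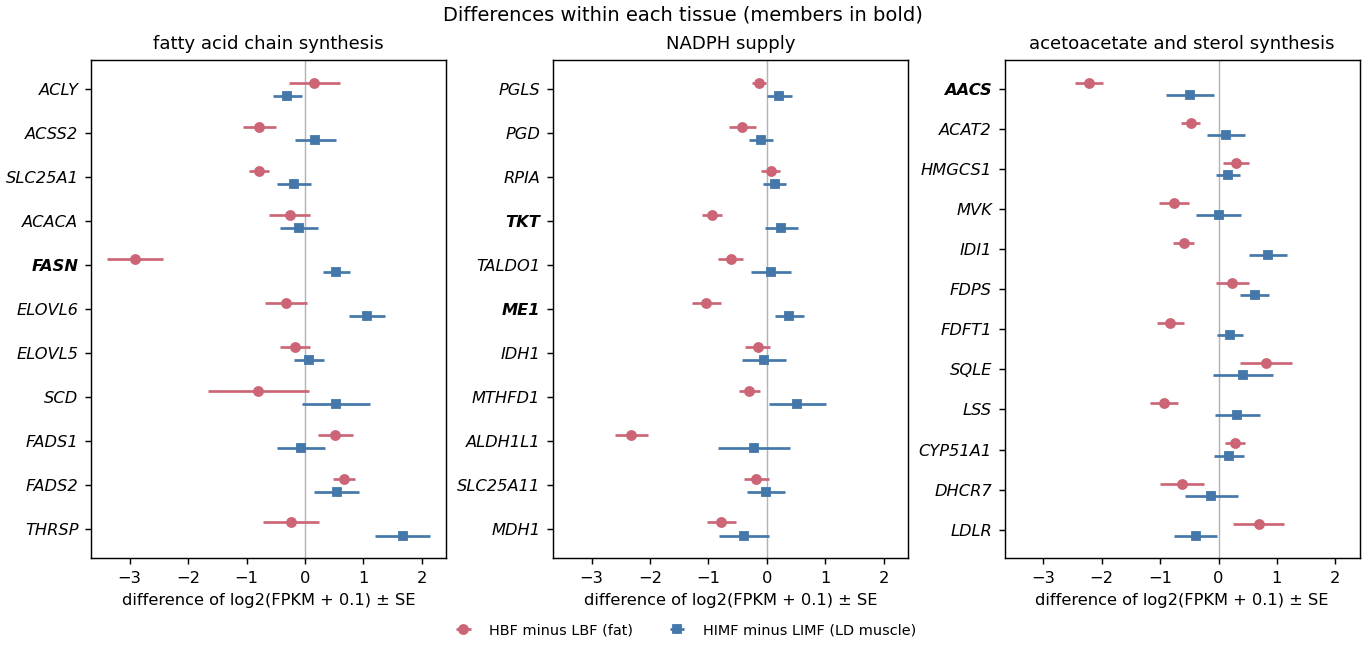
Differences in log2(FPKM + 0.1) of HBF minus LBF in fat (circles) and HIMF minus LIMF in LD muscle (squares) for genes of 3 lists, with bars of 1 standard error and the members in bold. FASN at -2.91, ALDH1L1 at -2.32 and AACS at -2.21 lie farthest to the left in fat, and the muscle values of FASN (0.54), ME1 (0.38) and TKT (0.25) lie right of 0.

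The isoforms of ME1 and TKT were compared in the same libraries. The mitochondrial malic enzyme ME3 was at 39.1, 48.5 and 39.8 FPKM in LBF, against 27.8, 38.2 and 33.6 FPKM in HBF, lower without overlap but by only -0.36 ± 0.16 (SE) on the log2 scale. ME2, also mitochondrial, was at 5.88 to 8.68 FPKM in LBF, against 7.86 to 9.52 FPKM in HBF, with overlap. TKTL1 did not exceed 0.13 FPKM in any library and TKTL2 did not exceed 1.01 FPKM. TKT was thus the transketolase with a level above these in all 12 libraries.

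In LD muscle the members were at lower levels than in fat and, apart from FASN, overlapped between HIMF and LIMF. FASN was at 1.08, 1.39 and 1.07 FPKM in LIMF, against 1.85, 1.66 and 1.73 FPKM in HIMF. Every HIMF library was above every LIMF library, the opposite order to that of the thicker backfat. The means were 1.18 ± 0.18 and 1.75 ± 0.10 FPKM (SD, n = 3 each), a ratio of 1.48. The difference of HIMF minus LIMF in log2(FPKM + 0.1) was 0.54 ± 0.24 (SE), with a 95% interval from -0.01 to 1.08.

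ME1 was the member with the highest level in muscle, at 15.2, 25.4 and 23.3 FPKM in LIMF, against 28.0, 31.2 and 22.8 FPKM in HIMF. The highest LIMF library was above the lowest HIMF library, and the log2 difference was 0.38 ± 0.25 (SE). Without LIMF replicate 1, the lowest library, it was 0.16.

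TKT stood at 3.34, 3.54 and 4.43 FPKM in LIMF, against 5.74, 5.14 and 3.03 FPKM in HIMF, with the lowest value of all in HIMF replicate 3. Its log2 difference was 0.25 ± 0.28 (SE), and between 0.08 and 0.52 with single libraries left out. AACS was at 1.02, 2.29 and 2.65 FPKM in LIMF, against 1.47, 0.83 and 1.71 FPKM in HIMF, a difference of -0.49 ± 0.42 (SE). Leaving out single libraries gave -0.89 to -0.21 for AACS.

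None of the 4 genes passed the test in muscle. The adjusted p-values of limma were 0.707 for FASN, 0.803 for ME1, 0.838 for AACS and 0.881 for TKT. At the limits used, 0% of 14292 genes were called, and 1004 genes had an unadjusted p under 0.05. The exact permutation test gave a two-sided p of 0.10 for FASN, the smallest possible, 0.30 for ME1, 0.40 for AACS and 0.50 for TKT. Of all genes tested, 7.93% were higher and 4.74% lower in HIMF without overlap, and 1 of the 4 members was in the former set. The FPKM of a library summed to 430581 to 450875 in LIMF and to 496972 to 517796 in HIMF. After median-of-ratios scaling the shares were 6.61% higher and 5.98% lower, and 1 member was still higher without overlap.

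Other lipid genes of muscle were also higher in every HIMF library. In the list of fatty acid chain synthesis these were ELOVL6 (1.06 ± 0.31, SE), which lengthens palmitate, and THRSP (1.67 ± 0.47), a lipogenic nuclear protein, besides FASN. The list had 0 genes lower without overlap, and over all genes tested 7.93% were higher and 4.74% lower. Its median was 0.18 against 0.04 over all genes. SREBF1 was at 3.08, 3.08 and 5.55 FPKM in LIMF, against 8.10, 14.8 and 6.83 FPKM in HIMF, a difference of 1.30 ± 0.36 (SE). The smallest adjusted p of these genes was 0.544 by limma, so none passed.

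Adipocyte transcripts moved with FASN in part. Of the 9 adipocyte markers in muscle, ADIPOQ, LEP and PLIN1 were higher in HIMF without overlap, LPL was lower, and the sum was 184 to 255 FPKM in LIMF and 135 to 212 FPKM in HIMF. ADIPOQ, the adipocyte hormone adiponectin, was at 4.27, 6.46 and 1.31 FPKM in LIMF, against 21.8, 8.36 and 11.2 FPKM in HIMF. The skeletal muscle markers summed to 11876 to 26088 FPKM in LIMF and 30335 to 36816 FPKM in HIMF, without overlap. ACTA1 was listed at 0 in all 3 LIMF libraries and in HIMF replicate 1, and CKM in LIMF replicates 2 and 3. These entries enter the sums, and the gap between the sums rests on them. MYL1, TNNT3, TNNI2 and PYGM, not listed at 0 in muscle, each overlapped between HIMF and LIMF. Of the 8 muscle markers CASQ1 was higher and ACTN2 lower in HIMF without overlap. The part of fat cells and of muscle RNA in the FASN values was not tested.

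Between the tissues the members were far apart in level. FASN ranged from 51.0 to 980.3 FPKM over the 6 fat libraries and from 1.07 to 1.85 FPKM over the 6 muscle libraries. The difference of muscle minus fat in log2(FPKM + 0.1) was -7.10 ± 0.27 (SE) for FASN, -5.89 ± 0.16 for TKT, -3.34 ± 0.25 for AACS and -1.55 ± 0.18 for ME1. Each of the 4 genes passed the test in limma, with adjusted p-values of 7.97e-10, 9.30e-11, 1.75e-07 and 8.09e-06 in the same order. No member overlapped between the tissues, and the exact permutation test of 6 against 6 libraries gave a two-sided p of 0.00216 for each, the smallest possible.

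Most genes were lower in muscle on the deposited scale, with 47.1% of 15965 genes called as lower and 9.29% as higher. The median difference over all genes was -0.97, and it was -0.16 after median-of-ratios scaling and -0.06 after quantile normalization. Calls were higher in muscle in 16.5% of cases as deposited, and in 44.7% and 47.1% under these scalings. Relative to the median of all genes, FASN stood at -6.13, TKT at -4.93, AACS at -2.38 and ME1 at -0.58. The difference of ME1 was -0.51 after median-of-ratios scaling, with an adjusted p of 0.0270 by limma, so that its call was lost, and -1.27 after quantile normalization. For FASN, TKT and AACS the calls remained under both scalings.

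**Figure D3:**
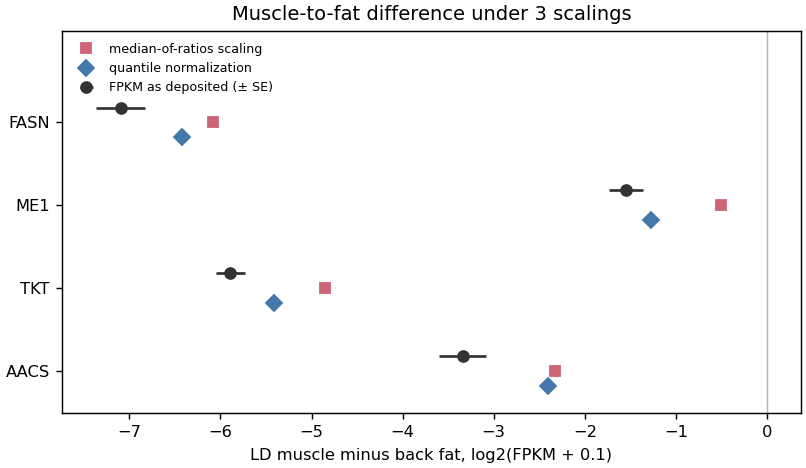
Difference of LD muscle minus back fat in log2(FPKM + 0.1) for the 4 genes, from the FPKM as deposited (circles with 1 standard error), after median-of-ratios scaling (squares) and after quantile normalization (diamonds). FASN (-7.10, -6.08 and -6.42) and TKT (-5.89, -4.86 and -5.41) lie far from 0 under each scaling, while ME1 moves from -1.55 to -0.51 and -1.27.

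The gap between tissues ran through the lists around the members. In fatty acid chain synthesis 10 of 11 genes were called as lower in muscle on the deposited scale, beside 47.1% of all genes, and after median-of-ratios scaling 9 were, beside 26.4%. ACSS2 was called under neither (-0.06 and 0.98), and FADS2 lost its call after scaling (-0.41). In NADPH supply 9 of 12 genes were called as lower and 1 as higher, the oxoglutarate carrier SLC25A11 of mitochondria. After scaling 8 were lower and 2 higher, since ME1 lost its call and MDH1 was called as higher (1.14). In acetoacetate and sterol synthesis 9 of 13 genes were called as lower, and after scaling 7 were lower and 2 higher, IDI1 (1.07) and FDFT1 (1.47). After quantile normalization this list had 7 lower and 0 higher, and NADPH supply had 9 lower and 1 higher, beside 22.4% of all genes called as lower. MDH1, IDI1 and FDFT1 were thus not called as higher under that scaling. The median differences of these lists were -4.66, -3.31 and -2.57, beside -0.97 over all genes, and -3.67, -2.33 and -1.54 after median-of-ratios scaling.

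The order of the groups was the same for FASN, ME1 and TKT, with LBF highest, then HBF, HIMF and LIMF. For FASN no neighbouring groups in this order overlapped. For ME1 and TKT the muscle groups overlapped. For AACS the order was LBF, HBF, LIMF and HIMF, and LIMF and HIMF overlapped.

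The order of the members within a library also changed between groups. In LBF, FASN and TKT were the highest, with FASN above TKT in 2 of 3 libraries and 98.99% to 99.7% of expressed genes below either. In HBF, TKT was the highest of the members in all 3 libraries, and 93.6% to 97.9% of expressed genes lay below FASN. In muscle, ME1 was the highest in all 6 libraries, with 83.6% to 90.0% of expressed genes below it, while 35.5% to 44.4% lay below FASN. AACS had 90.7% to 92.5% of expressed genes below it in LBF and 54.0% to 69.6% in HBF.

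The difference with backfat was compared with the difference with intramuscular fat in 1 fit of all 12 libraries. The muscle difference minus the fat difference in log2(FPKM + 0.1) was 3.45 ± 0.54 (SE) for FASN, 1.72 ± 0.51 for AACS, 1.42 ± 0.37 for ME1 and 1.19 ± 0.32 for TKT. The adjusted p-values of limma were 0.138, 0.336, 0.299 and 0.303, and 0% of 15965 genes passed an adjusted p under 0.05, with 1628 at an unadjusted p under 0.05. By exact permutation within each tissue, over 400 relabellings, the two-sided p was 0.005 for FASN, which is the smallest possible, 0.015 for ME1, 0.025 for TKT and 0.13 for AACS. These p-values use the fat libraries in which the study found the genes and are therefore not independent of that choice. The adjusted p of FASN was 0.0336 without LBF replicate 2 and 0.0430 without LIMF replicate 3, and it passed the limit in these cases alone among the alternatives.

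Ratios within a library do not depend on the scaling between libraries, and 14 were computed, chosen after values had been seen. FASN over ACACA was 40.3, 21.6 and 14.2 in the LBF libraries, against 2.49, 2.71 and 7.46 in HBF. FASN over ELOVL6 was 2.85, 2.64 and 2.43 in the LBF libraries, against 0.332, 0.368 and 0.691 in HBF. Both ratios were lower in HBF without overlap, so FASN differed more than the enzymes before and after it in the pathway.

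AACS over HMGCS1, which uses the acetoacetyl-CoA that AACS makes, was 4.83, 3.69 and 2.81 in the LBF libraries, against 0.595, 0.681 and 0.631 in HBF. The HBF libraries were close together and far below the LBF libraries. TKT over TALDO1 was 0.704, 0.814 and 0.535 in the LBF libraries, against 0.380, 0.666 and 0.616 in HBF, and here the groups overlapped. ME1 over TKT ranged from 0.233 to 0.389 in LBF and from 0.228 to 0.313 in HBF. In muscle it was far higher, at 4.54 to 7.16 for LIMF and 4.89 to 7.53 for HIMF. The balance of these enzymes thus overlapped between the groups of a tissue and was shifted towards ME1 in all 6 muscle libraries.

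**Figure D4:**
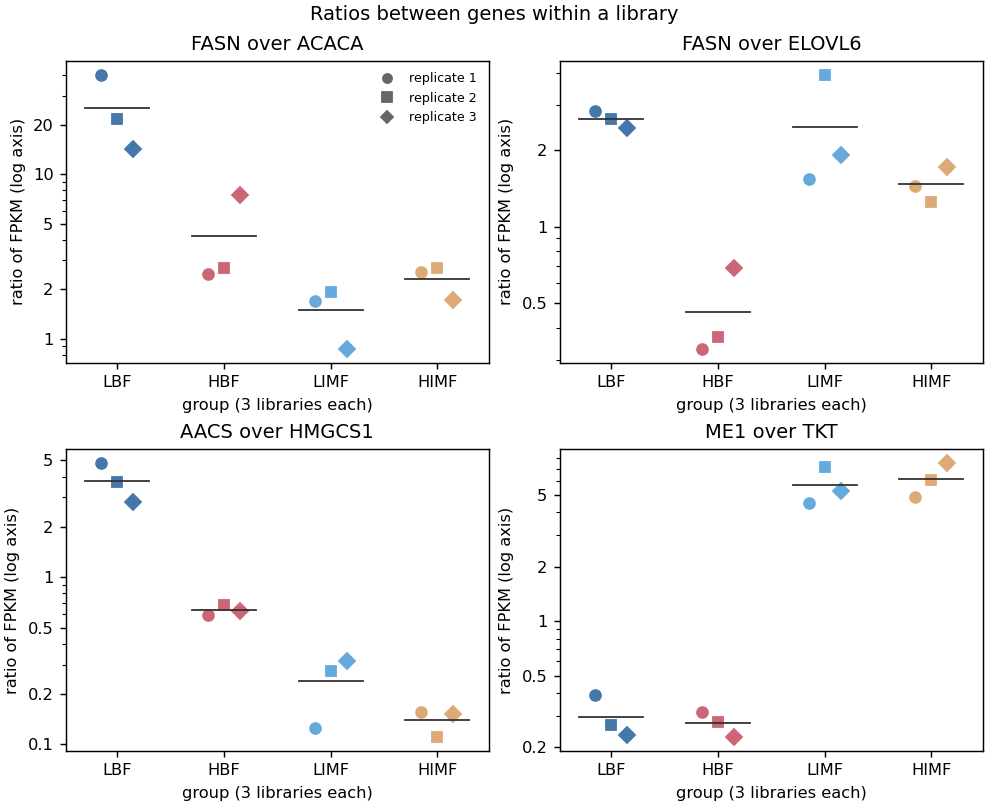
Ratio of FPKM between pairs of genes within each library on a log axis, with the 4 groups on the horizontal axis, 1 point per library and a bar at the mean of the 3 libraries. FASN over ACACA, FASN over ELOVL6 and AACS over HMGCS1 are lower in the 3 HBF libraries than in the 3 LBF libraries, and ME1 over TKT lies between 0.228 and 0.389 in fat and between 4.54 and 7.53 in muscle.

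Within groups the members moved together only loosely. After the mean of each group was subtracted, Pearson's r over the 12 libraries was 0.52 for ME1 with TKT, 0.39 for ME1 with AACS and 0.38 for FASN with ME1. It was 0.26 for FASN with TKT, 0.21 for FASN with AACS and 0.14 for TKT with AACS. In the 6 fat libraries TKT with AACS reached 0.78, and in the 6 muscle libraries it was -0.04. All points share the scaling of their library, and no test was made of these 6 pairs.

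The genes most like each member were found among 9843 named genes by Pearson's r of log2(FPKM + 0.1) over the 12 libraries, after the mean of each tissue was subtracted. For FASN they were the collagen gene COL4A5 (r = 0.97), the fructose-2,6-bisphosphate enzyme PFKFB1 (0.94) and the lysine-degrading enzyme AASS (0.92). COL4A5 had mean FPKM of 3.39 in LBF, 0.860 in HBF, 0.181 in LIMF and 0.247 in HIMF, so it entered through LBF alone and lay near the pseudocount in muscle. PFKFB1 had mean FPKM of 6.49 in LBF and 0.570 in HBF, and of 21.2 in LIMF and 39.5 in HIMF. For AACS they were ALDH7A1 (0.98), also a lysine-degrading enzyme, the peroxisomal membrane protein PXMP2 (0.93) and the mitochondrial aspartate aminotransferase GOT2 (0.92).

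For TKT the nearest genes were MPND (0.93), ISLR (0.90) and CTXN3 (0.88), of which CTXN3 had mean FPKM of only 0.113 in LBF and 0.00820 in HBF, near or below the pseudocount of 0.1, and so rests on floor values in fat. For ME1 they were AKAP7 (0.89), GET3 (0.87) and YBX1 (0.87). By this measure TKT ranked 8 for ME1 and ME1 ranked 8 for TKT, with r = 0.84, and ME1 ranked 21 for FASN, with r = 0.82. The group differences enter this measure, and the points share the same libraries.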

How the data were processed

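RNA from back subcutaneous fat and LD muscle was sequenced by the study with paired-end Illumina reads. The authors used fastp for read filtering and HISAT2 for alignment to Sscrofa11.1, and deposited FPKM from Cufflinks 2.2.1 for each Ensembl gene and library. The 31910 rows carried 31903 identifiers, and the 7 identifiers on 2 rows each were summed. FPKM hides the read count, so no counting error is given, and the authors' own DESeq2 test on counts was not repeated.

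Groups were compared with limma 3.58.1 in R 4.3.3 on log2(FPKM + 0.1), with a mean-variance trend in eBayes. Genes entered at a mean FPKM over 0.05 across the compared libraries, with Benjamini-Hochberg adjustment over all genes. This scale understates the change of low genes. Calls required an adjusted p below 0.01 and a log2 difference of 1 or more in size, or an adjusted p under 0.05 for the difference between tissues. Exact permutation tests were two-sided and used SciPy. The labels do not say whether fat and muscle came from the same pigs, and libraries were taken as separate pigs. The study collected both tissues from its slaughtered pigs, so a fat and a muscle library can share a pig. The comparisons between tissues take no account of such pairs. The test was tested on simulated data.

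The members, the gene lists and the rule for named genes (the members, the listed genes with a row, and the 3 named genes with a mean FPKM above 1 most correlated with each member) were chosen with earlier results of these data known. Of 107 listed genes, 100 were paired with a row by symbol, and 15027 identifiers had a symbol. Values of some listed genes are left out here. Alternatives were other pseudocounts, filters and scalings, single libraries left out, a replicate block, no trend, and all libraries in 1 fit. Protein and promoter sequences were not used here.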

Additional observations from a re-analysis of the deposited data

Results flagged for a closer look

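FASN was singled out because its libraries separated in opposite directions in the tissues: every HBF library was below every LBF library in fat, and every HIMF library was above every LIMF library in muscle. The muscle difference minus the fat difference in log2(FPKM + 0.1) was 3.45, and the limma test of this difference gave an adjusted p of 0.138 over 15965 genes.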

How the results depend on the processing

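All 280 alternative values of the members kept their direction, and 3 changed sides of the limits for a call. The muscle-to-fat difference of ME1 was -0.51 after median-of-ratios scaling, and FASN passed in the difference between tissues without LBF replicate 2 and without LIMF replicate 3, where the values were 3.84 and 3.39. Leaving out single libraries gave 3.06 to 3.85 for FASN in that comparison.

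The count of genes called between HBF and LBF was 0 to 2 with single libraries left out and 0 under all other alternatives. Between HIMF and LIMF it was 0 to 5 with single libraries left out and 1 with all 12 libraries in 1 fit. For the difference between tissues it was 0 to 118 with single libraries left out, 1 with a pseudocount of 1, 1 with a pseudocount of 0.01, 11 without a filter and 2 without the trend, and the 118 were called without LIMF replicate 3. Between muscle and fat 9009 genes were called, 5864 with a pseudocount of 1, and 8833 to 9008 with single libraries left out. The cause of these shifts was not tested.

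With the replicate number as a replicate block, 0 genes were called in fat, 0 in muscle, 9000 between the tissues and 0 in the difference between them. Same-numbered low and high libraries of a tissue correlated by 0.05, 0.15 and 0.02 in fat after group means were subtracted. In muscle the values were -0.05, -0.01 and -0.05. The numbers were not taken as pairs. These libraries come from different pigs, and a pairing of fat with muscle libraries was not checked. With 3 libraries a group, exact tests within a tissue could not fall below 0.10.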

Other observations

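In muscle, lists beside that of fatty acid synthesis held genes whose groups did not overlap. Of the 15 regulators of lipogenesis, 3 were higher in HIMF and 2 lower, SREBF2 and SCAP. Of the 4 ketone body genes tested, 0 were higher and 1 was lower. Over all genes tested 7.93% were higher and 4.74% lower. BDH1, the mitochondrial hydroxybutyrate dehydrogenase of ketone body metabolism, was at 10.8, 8.32 and 3.73 FPKM in LIMF, against 1.60, 1.24 and 3.59 FPKM in HIMF, lower without overlap, with a log2 difference of -1.80 ± 0.49 (SE) and an adjusted p of 0.544 by limma. IRS1, which carries the insulin signal, was at 8.13, 13.0 and 14.99 FPKM in LIMF, against 25.3, 41.0 and 20.1 FPKM in HIMF, higher without overlap, with a log2 difference of 1.23 ± 0.33 (SE) and an adjusted p of 0.544. Neither gene passed the test.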
